A study of Homo sapiens with 12 samples.

Results

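The genes described here build, crosslink and degrade the extracellular matrix, carry the TGF-beta signal, or drive the mesenchymal programme. They were taken from a list of 56 genes through every probe set of the array that is annotated to exactly 1 gene symbol. Such a probe set was found for 55 of the 56, out of 19775 genes with one on the array, and LAMA3 was not analysed here. The 55 genes had 157 probe sets, of which 76 had a log2 value above 4 on at least 3 of the 12 arrays. By its brightest probe set, 41 of the 55 genes passed that filter and were tested, among 10699 genes tested in all, and the other 14 did not pass, 12 of them below 4 on every array.

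Affymetrix expression arrays were hybridised with RNA of HK-2 cells, an immortalised human line of renal proximal tubule epithelium. There were 4 groups of 3 arrays: cells given a low dose of Ota for 24 h, vehicle control cells at 24 h, cells given the low dose for 72 h, and vehicle control cells at 72 h. The dose in numbers and the full name of Ota are not in the labels; OTA usually stands for ochratoxin A, a fungal toxin that harms the kidney tubule. All 4 groups were grown in the same medium, with EGF, hydrocortisone, insulin, transferrin and selenite. The wider study looked for expression signatures of toxicity among several compounds. The arrays of a group are labelled biological replicates with nothing on what their cultures shared, so the p-values describe the spread among these samples, which may be technical.

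Epithelia lay down a basement membrane of type IV collagen, laminins and proteoglycans, while the fibrillar collagens of scar tissue come mainly from fibroblasts. TGF-beta binds paired receptors at the cell surface, SMAD2 and SMAD3 carry the signal to the nucleus with SMAD4, and SMAD7 shuts the receptor down. In the kidney tubule this pathway raises matrix genes such as CCN2 and FN1, and transcription factors of the SNAI, TWIST and ZEB families can turn epithelial cells towards a mesenchymal state.

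The labelled cell type was set against marker lists. All 6 epithelial markers (KRT7, KRT8, KRT18, KRT19, EPCAM, CDH1) were above the filter, with group mean log2 levels from 6.52 to 13.6. Of 8 fibroblast markers, 7 were at the floor, among them PDGFRA, PDGFRB, THY1, POSTN and FAP, and ACTA2 alone passed. The summed level of those 7 markers lay between 5.57 and 5.69 on a log2 scale over all arrays. DCN and LUM, textbook fibroblast genes that were not on that list, were above 4 on all 12 arrays, at 9.40 to 12.09 and 7.27 to 9.82. None of 5 endothelial markers and none of the 3 leukocyte markers measured passed. Across the tested genes r was 0.986 to 0.994 between arrays of a group, and at most 0.981 between groups.

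**Figure D1:**
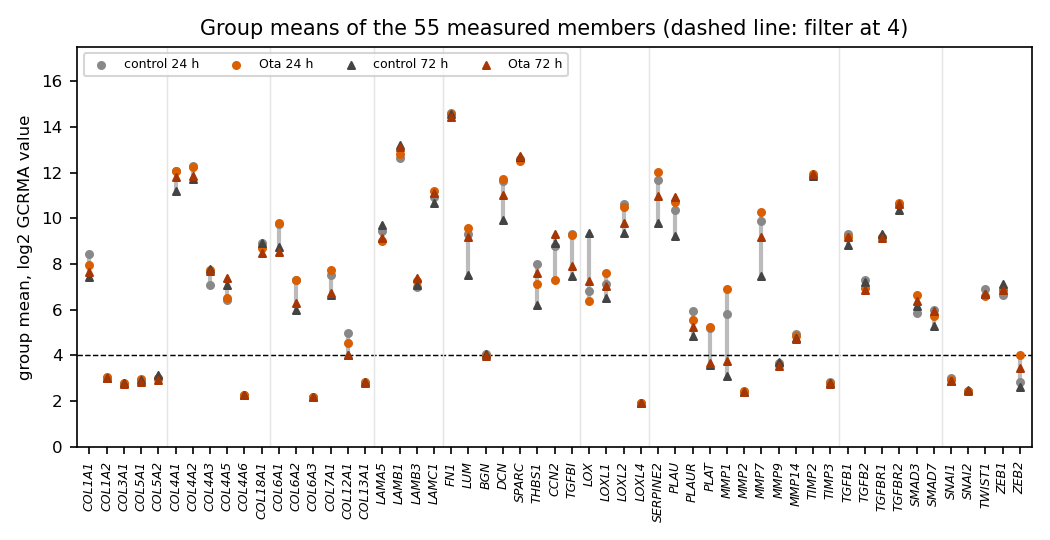
Group mean log2 value of the brightest probe set of each of the 55 measured genes, ordered by role, with circles for 24 h, triangles for 72 h, grey for control and orange for Ota. The dashed line is the filter at 4, with at least 3 arrays above it for 41 genes and not for 14; levels of different genes come from different probes and are not comparable.

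The cells' matrix repertoire was partial. Of the fibrillar collagens, COL1A1 was measured between 7.10 and 8.86 on the log2 scale by its brightest probe set, and between 5.48 and 6.35 by another. Its 3 further probe sets did not pass the filter, with no array above 4.56. COL1A2, COL3A1, COL5A1 and COL5A2 lay at the floor, with no array above 3.32. COL1A1 encodes the chain that pairs with COL1A2 in type I collagen. COL4A6, COL6A3, COL13A1, LOXL4, MMP2, TIMP3, SNAI1 and SNAI2 were also below 4 on every array. MMP9, a gelatinase, read 3.37 to 4.13 and was above 4 on 1 array, and ZEB2 was above it on 2, so these lay near rather than at the floor. BGN, which encodes the proteoglycan biglycan, passed the filter with 10 arrays just above 4, between 3.89 and 4.13 throughout.

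After 24 h of Ota few of these genes differed from control in the main fit, which does not pair the arrays. Below, a rise or fall with Ota means higher or lower than control cells at the same time, unless a change over time is named. Of the 41 tested, 3 were higher (LOXL1, MMP7 and SMAD3) and 2 lower (LAMA5 and TWIST1) at a limma adjusted p below 0.05. That is 5 of 41, against 31.0% of all genes tested, with 9.44% higher and 21.6% lower. With the replicate number of the sample titles as a block, 3 were higher and 5 lower at 24 h (35.7% of all genes called). A block within each time, chosen after seeing the data, gave 6 higher and 5 lower (36.8%). In the main fit, 14 of the 41 had changed at 72 h, 11 higher and 3 lower. Of all genes 32.0% had changed, with 17.1% higher and 14.9% lower. The 11 were COL4A1, LAMC1, LUM, DCN, LOXL1, LOXL2, SERPINE2, PLAU, MMP7, TGFB1 and SMAD7, and the 3 were COL18A1, LAMA5 and LOX. COL4A1, LUM, LOXL1, SERPINE2, PLAU, MMP7, LAMA5 and LOX kept their 72 h call under every alternative run. The median log2 difference over the 41 was 0.0047 at 24 h and 0.24 at 72 h, beside -0.056 and 0.0067 over all genes tested. Arrays of both groups did not overlap for 11 of the 41 at 24 h (7 higher and 4 lower), against 42.7% of all genes (15.4% and 27.3%). At 72 h this held for 21 (16 higher and 5 lower), against 51.4% of all genes (26.0% and 25.3%). In RNA from whole cultures, fewer cells expressing a gene and less of its RNA per cell cannot be told apart.

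**Figure D2:**
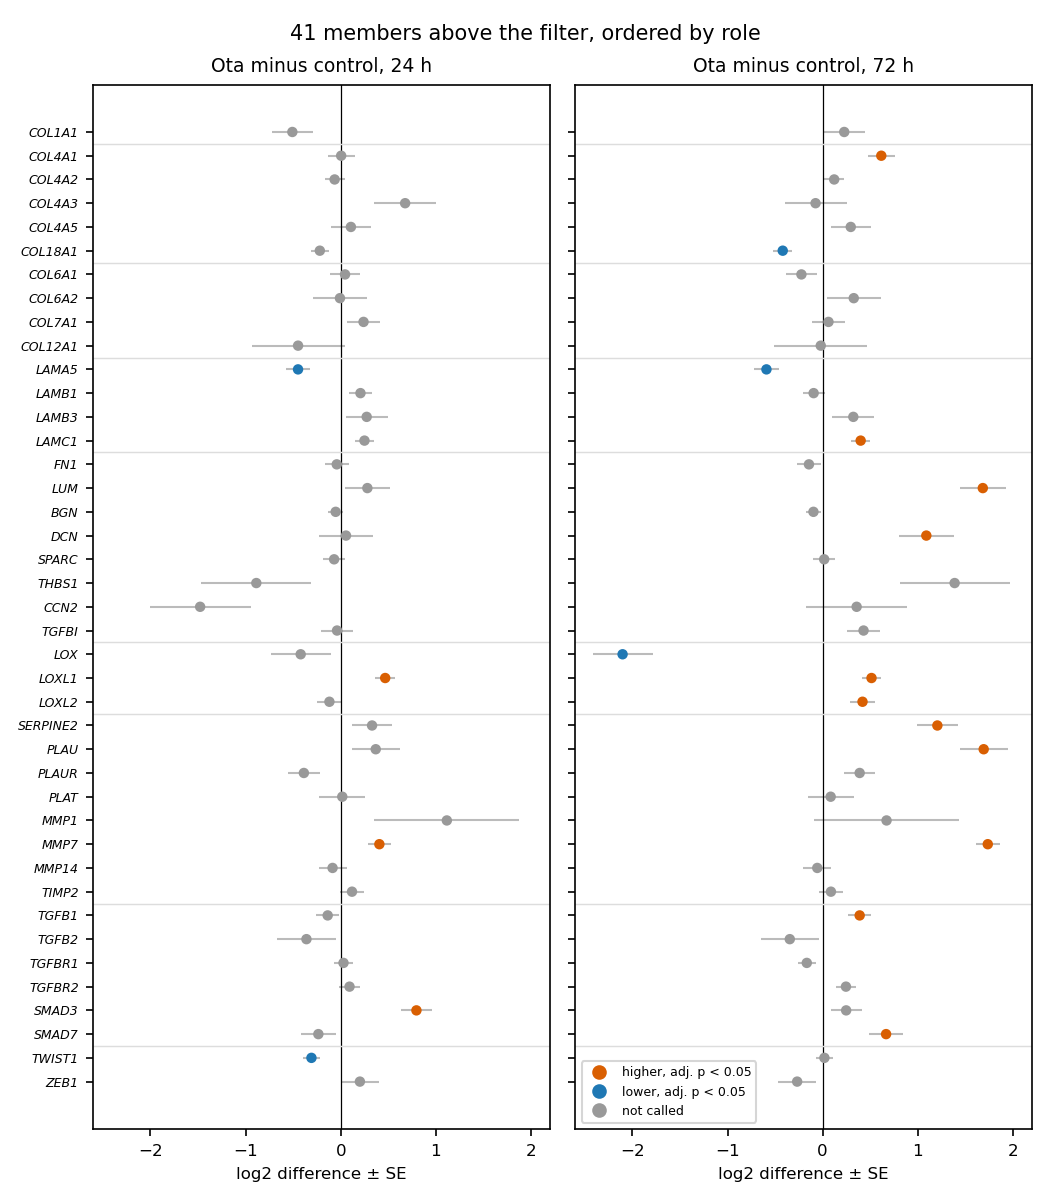
Log2 difference, Ota minus control, of the 41 tested genes at 24 h and at 72 h, with the standard error of the limma fit as bars and calls in colour. At 72 h MMP7, PLAU and LUM stand furthest to the right, at 1.74, 1.69 and 1.68, and LOX furthest to the left, at -2.10.

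MMP7, PLAU and SERPINE2 are pericellular protease genes or their inhibitors, and they had the clearest rises at 72 h together with the proteoglycan LUM. The promoter window of MMP7 is shown beside that of LOX, which moved the opposite way, to let a reader compare the start regions of the genes with the most extreme differences. Both come from the RefSeq promoter table of build GRCh38.p14, 250 bases before to 50 bases from the transcription start on, written 5′ to 3′ on the gene's strand. Capitals mark, in MMP7, a match to TGANTCA (the AP-1 motif) and the TATAAA box, and in LOX the matches to CAGAC or its reverse complement, the core of the SMAD-binding CAGA element.
MMP7, chr11:102530698-102530997, minus strand: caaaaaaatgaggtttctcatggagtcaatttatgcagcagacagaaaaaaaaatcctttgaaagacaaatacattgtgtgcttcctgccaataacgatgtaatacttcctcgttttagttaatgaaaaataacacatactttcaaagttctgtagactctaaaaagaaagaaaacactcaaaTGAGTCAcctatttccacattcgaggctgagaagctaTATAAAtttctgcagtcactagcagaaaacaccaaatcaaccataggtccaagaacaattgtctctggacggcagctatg
LOX, chr5:122078210-122078509, minus strand: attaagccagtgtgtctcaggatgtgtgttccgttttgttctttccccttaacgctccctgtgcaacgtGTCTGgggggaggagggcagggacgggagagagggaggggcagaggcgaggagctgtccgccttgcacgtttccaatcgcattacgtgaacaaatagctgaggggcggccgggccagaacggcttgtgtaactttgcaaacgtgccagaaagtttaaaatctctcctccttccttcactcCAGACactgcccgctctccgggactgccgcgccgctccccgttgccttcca
Counted from the transcription start, the MMP7 match to AP-1 begins at position -67 and its TATAAA box at -30. The LOX matches begin at positions -181, on the opposite strand, and -1. MMP7 also held 1 CAGAC match, left in lower case. Over both strands, TGANTCA was found in 3 of the 40 listed genes with a window and in 7.72% of 27305 genes. For CAGAC the counts were 21 of 40 and 45.1%, for TATAAA 6 of 40 and 12%, and for CANNTG, the E-box, 23 of 40 and 69%. GTCTAGAC, the palindromic SMAD element, was in 0 of 40 and in 0.209% of all. No motif of this search contains another, and a match describes letters, not a bound site.

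MMP7, which encodes matrilysin, a small metalloproteinase secreted by epithelia, was measured at 9.69, 10.03 and 9.86 in control cells at 24 h and at 10.09, 10.44 and 10.27 with Ota (log2, replicates 1 to 3). At 72 h it was at 7.39, 7.43 and 7.56 in control cells and at 9.08, 9.38 and 9.13 in Ota cells. The Ota arrays lay above the control arrays at both times, and the control arrays at 72 h were the lowest. MMP7 rose by 0.41 ± 0.12 (SE) at 24 h (limma adjusted p = 0.0277) and by 1.74 ± 0.12 at 72 h, 3.33-fold (adjusted p = 6.2e-06). The 24 h call was lost without Ota replicate 2 (0.32, adjusted p = 0.11) or 3 (adjusted p = 0.0602), without control replicate 1 (adjusted p = 0.106) or 3 (adjusted p = 0.0554), and without the filter (adjusted p = 0.0541), all by limma. The 72 h call was kept under every alternative run.

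PLAU encodes urokinase, which turns plasminogen into the matrix-degrading enzyme plasmin. It read 10.57, 9.98 and 10.52 in control and 10.82, 10.60 and 10.76 with Ota at 24 h, a difference of 0.37 ± 0.25 (limma adjusted p = 0.306). With the replicate number as a block within each time, an alternative chosen after seeing the data, PLAU was called at 24 h (adjusted p = 0.0418), and with 1 block over both times it was not (adjusted p = 0.127). At 72 h it read 9.08, 8.79 and 9.81 in control and 10.73, 10.72 and 11.30 in Ota cells, with no overlap. PLAU rose 3.23-fold at 72 h, by 1.69 ± 0.25 (adjusted p = 0.000563), and its other probe set by 1.64 ± 0.27.

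SERPINE2, or protease nexin 1, inhibits urokinase and thrombin. Its control arrays at 72 h read 9.80, 9.23 and 10.30 and its Ota arrays 10.99, 10.78 and 11.18, so the groups were apart. At 24 h the values were 11.69, 11.57 and 11.79 in control and 11.95, 12.14 and 11.94 in Ota cells (0.33 ± 0.21, adjusted p = 0.274). The rise at 72 h was 2.31-fold, 1.21 ± 0.21 (adjusted p = 0.00149), and 0.62 when averaged with a probe set that lies below the filter. The urokinase receptor PLAUR differed by -0.39 ± 0.16 at 24 h and 0.39 ± 0.16 at 72 h, neither called. MMP1, an interstitial collagenase, varied widely between arrays, at 5.14, 7.20 and 5.07 in control and 6.69, 8.76 and 5.29 with Ota at 24 h, and near or below 4 at 72 h, between 3.06 and 4.40. Its same-number differences at 24 h were 1.55, 1.57 and 0.23, and 1.12 ± 0.76 was not called (limma adjusted p = 0.301), but was with the block within each time (adjusted p = 0.0247, and 0.125 with the block over both times). MMP14, TIMP2 and PLAT were not called against control at either time by their brightest probe sets.

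LUM and DCN, which encode lumican and decorin, small proteoglycans that coat collagen fibrils, are neighbouring genes with 0 protein-coding genes between them. LUM read 9.68, 8.82 and 9.44 in control and 9.82, 9.66 and 9.30 with Ota at 24 h, where the arrays overlapped (0.28 ± 0.24, adjusted p = 0.414). At 72 h it read 7.60, 7.27 and 7.65 in control and 9.62, 8.96 and 8.99 in Ota cells. LUM rose 3.21-fold at 72 h, by 1.68 ± 0.24 (adjusted p = 0.000391), and by 0.84 when averaged with its other probe set, which is at the floor. DCN read 10.26, 10.08 and 9.40 in control and 11.23, 11.16 and 10.62 in Ota cells at 72 h, after 11.74, 12.09 and 11.13 and then 11.89, 11.91 and 11.32 at 24 h. By its brightest probe set DCN overlapped between the groups at 24 h (0.056 ± 0.29) and rose 2.13-fold at 72 h, by 1.09 ± 0.29 (adjusted p = 0.0141). That call was lost without Ota replicate 1 at 72 h (0.97, adjusted p = 0.0573), without control replicate 3 at 72 h (0.83, adjusted p = 0.0602) and without the filter (adjusted p = 0.0527), all by limma. The 3 other DCN probe sets above the filter were all higher at 72 h, by 1.17 to 2.42. The dimmest of them was also higher at 24 h, by 0.86 ± 0.28 (adjusted p = 0.0383 over all probe sets), at 8.40, 8.31 and 7.86 against 7.45, 6.99 and 7.54. Textbook fibroblast genes include DCN and LUM; beside them, ACTA2 was higher by 0.76 ± 0.19 at 24 h (adjusted p = 0.0104) and lower by 0.57 ± 0.19 at 72 h (adjusted p = 0.0414), and the other 7 fibroblast markers stayed at the floor in both groups.

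**Figure D3:**
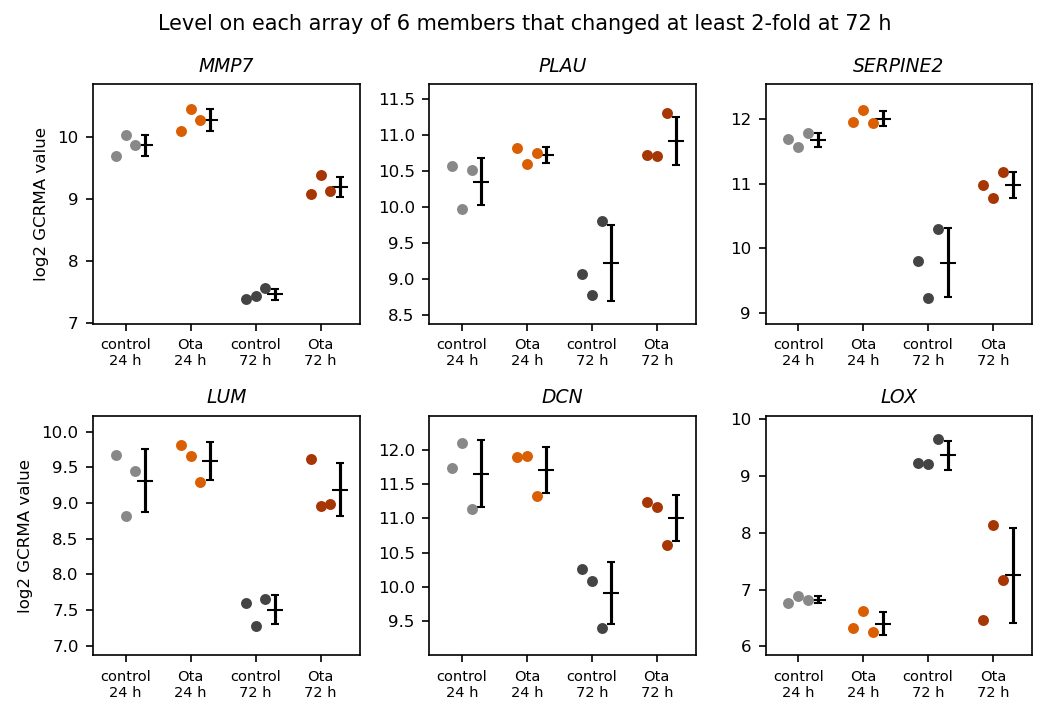
Log2 value on each array of MMP7, PLAU, SERPINE2, LUM, DCN and LOX in the 4 groups, with points for the 3 arrays and a bar for their mean and SD. In the first 5 panels the control arrays at 72 h are the lowest of all, and in the LOX panel they are the highest, at 9.21, 9.21 and 9.65.

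LOX, the lysyl oxidase that starts the crosslinking of collagen and elastin, had the largest difference of the 41 genes in either comparison with control. It read 6.77, 6.88 and 6.81 in control and 6.32, 6.63 and 6.25 with Ota at 24 h (-0.42 ± 0.32, adjusted p = 0.349). At 72 h control cells read 9.21, 9.21 and 9.65, and Ota cells 6.46, 8.13 and 7.17. The Ota arrays were thus spread over a wide range, with replicate 2 the highest, yet all were below the control arrays. LOX fell by 2.10 ± 0.32 on the log2 scale at 72 h (adjusted p = 0.00056). A dimmer probe set differed by -2.67 ± 0.38. The dimmest was above 4 in control cells at 72 h only, at 4.62, 5.00 and 5.18, and passed the filter through those arrays, so it gives no further support. LOXL1, an enzyme of elastic fibres, was higher at 24 h, at 7.77, 7.58 and 7.47 against 7.25, 7.14 and 7.02, and at 72 h, at 7.00, 7.15 and 6.92 against 6.58, 6.50 and 6.45. Its rises of 0.47 ± 0.10 (adjusted p = 0.00536) and 0.51 ± 0.10 (adjusted p = 0.00329) differed by 0.046 ± 0.15, not called. LOXL2, which crosslinks type IV collagen, rose by 0.42 ± 0.13 at 72 h (adjusted p = 0.0302). That call was lost without Ota replicate 1 (adjusted p = 0.0801) or 3 (0.32, adjusted p = 0.116), without control replicate 2 at 72 h (0.30, adjusted p = 0.11), without the filter (adjusted p = 0.0623) and after a shift of each array to the common median (0.35, adjusted p = 0.0657), all by limma.

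COL4A1 and COL4A2 encode the chains of the common type IV collagen of basement membranes. They lie head to head, with starts 127 bases apart, and their 300-base promoter windows share 226 bases. The COL4A2 window is shown because both genes share it; capitals mark the stretch from the COL4A1 start through the COL4A2 start, both included.
COL4A2, chr13:110307034-110307333, plus strand: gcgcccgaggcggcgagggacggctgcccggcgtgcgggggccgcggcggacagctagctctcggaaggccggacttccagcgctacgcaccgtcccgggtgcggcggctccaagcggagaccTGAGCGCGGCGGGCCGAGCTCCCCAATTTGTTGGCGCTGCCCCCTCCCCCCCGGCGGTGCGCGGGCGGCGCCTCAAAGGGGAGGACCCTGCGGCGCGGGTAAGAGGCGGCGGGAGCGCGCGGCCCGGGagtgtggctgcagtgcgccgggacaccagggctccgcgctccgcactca
The window is 77.7% G and C, against a median of 58.3% over all windows of the RefSeq table (GRCh38.p14), and held none of the motifs searched.

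COL4A1 passed the test at 72 h and COL4A2 did not. COL4A1 was at 11.37, 11.05 and 11.15 in control and 11.88, 11.61 and 11.92 in Ota cells, with no overlap. It rose 1.53-fold, by 0.62 ± 0.14 (adjusted p = 0.00669), and its other probe set by 0.66 ± 0.20. COL4A2 was at 11.83, 11.71 and 11.60 in control and 11.94, 11.72 and 11.85 in Ota cells, a difference of 0.12 ± 0.10 (adjusted p = 0.412). The difference between the genes was not tested. At 24 h both overlapped between groups: COL4A1 read 12.23, 11.80 and 12.16 against 12.20, 11.89 and 12.11, and COL4A2 12.41, 12.33 and 12.14 against 12.34, 12.21 and 12.14.

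Among laminins, LAMA5, the alpha chain of the main laminins of mature tubule basement membranes, was lower at both times. It read 9.50, 9.68 and 9.16 in control and 8.90, 9.07 and 9.02 with Ota at 24 h. At 72 h it read 9.72, 9.84 and 9.57 in control and 9.14, 9.21 and 9.02 in Ota cells. LAMA5 fell by 0.45 ± 0.13 at 24 h (adjusted p = 0.0207) and by 0.59 ± 0.13 at 72 h (adjusted p = 0.00502). The 24 h call was lost without Ota replicate 1 (adjusted p = 0.072), control replicate 1 (adjusted p = 0.0637) or control replicate 2 (-0.33, adjusted p = 0.0719), all by limma. LAMC1, the gamma chain shared by most laminins, rose by 0.40 ± 0.10 at 72 h (adjusted p = 0.0101), but its other probe set differed by -0.067 ± 0.11, and the mean of both by 0.17 (adjusted p = 0.182). At 24 h the brightest differed by 0.25 ± 0.10 (adjusted p = 0.0776), while the other was lower by 0.35 ± 0.11 (adjusted p = 0.0303 over all probe sets). COL18A1, the precursor of endostatin, fell by 0.42 ± 0.10 at 72 h (adjusted p = 0.00702), while its other probe set differed by 0.17 ± 0.15 and the mean of its probe sets by -0.13 (adjusted p = 0.398). LAMB1, LAMB3, COL4A3, COL4A5, COL6A1, COL6A2, COL7A1 and COL12A1 were not called against control at either time. COL4A3, at 0.68 ± 0.33 at 24 h (limma adjusted p = 0.141), was called there with the block within each time (adjusted p = 0.0373, and 0.0514 with the block over both times). FN1, fibronectin, stayed between 14.31 and 14.79 on all 12 arrays by its brightest probe set, with differences of -0.041 ± 0.13 and -0.14 ± 0.13. All 6 FN1 probe sets above the filter had negative differences, from -0.55 to -0.018 at 24 h and from -1.40 to -0.13 at 72 h. Its dimmest probe set above the filter differed by -1.40 ± 0.31 at 72 h (adjusted p = 0.0062 over all probe sets), and with the mean of its probe sets FN1 was lower by 0.37 at 72 h (adjusted p = 0.0374).

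Of the TGF-beta genes, SMAD3 was higher than control by 0.80 at 24 h, and TGFB1 and SMAD7 by 0.39 and 0.67 at 72 h. From 24 h to 72 h TGFB1 and SMAD7 changed by -0.50 ± 0.12 and -0.68 ± 0.18 in control cells, both called. In Ota cells they changed by 0.03 ± 0.12 and 0.22 ± 0.18, not called. SMAD3, the signal carrier, read 6.09, 5.47 and 5.97 in control and 6.65, 6.48 and 6.80 with Ota at 24 h, apart by 0.80 ± 0.16 (adjusted p = 0.00349). At 72 h it read 6.16, 6.13 and 6.16 against 6.48, 6.13 and 6.59 (0.25 ± 0.16, adjusted p = 0.28). A dimmer SMAD3 probe set ran the other way at 24 h, by -0.69 ± 0.25 (adjusted p = 0.057 over all probe sets). SMAD7, the inhibitor, read 5.34, 5.32 and 5.22 in control and 6.02, 5.65 and 6.20 in Ota cells at 72 h, after 6.23, 5.64 and 6.03 against 6.02, 5.51 and 5.67 at 24 h. It rose by 0.67 ± 0.18 at 72 h (adjusted p = 0.0165). The call was lost without Ota replicate 1 (0.63, adjusted p = 0.0559) or 3 (0.54, adjusted p = 0.0682), control replicate 3 (0.63, adjusted p = 0.0553) or the filter (adjusted p = 0.0502), all by limma.

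TGFB1, the main ligand, read 8.70, 8.93 and 8.81 in control and 9.16, 9.36 and 9.09 with Ota at 72 h. At 24 h it read 9.47, 9.33 and 9.12 against 9.24, 9.26 and 9.02. It rose by 0.39 ± 0.12 at 72 h (adjusted p = 0.0266). The call was lost without Ota replicate 1 (0.41, adjusted p = 0.0569) or 2 (0.31, adjusted p = 0.095), and without control replicate 1 (0.33, adjusted p = 0.0967) or 3 (0.39, adjusted p = 0.0665). It was also lost after that shift to the common median (0.32, adjusted p = 0.0595) and with the mean of its probe sets (0.18, adjusted p = 0.0799), 1 of which is at the floor, all by limma. TGFB2, a further ligand, read 7.62, 6.82 and 7.45 against 7.32, 6.61 and 6.88 at 24 h, and 7.50, 6.49 and 7.62 against 7.01, 6.56 and 7.00 at 72 h. It was not called (-0.36 ± 0.31 and -0.35 ± 0.31), although its second-brightest probe set was lower by 1.37 ± 0.46 at 24 h (adjusted p = 0.0418 over all probe sets). The receptor TGFBR2 read 10.68, 10.62 and 10.39 against 10.70, 10.63 and 10.63 at 24 h, and 10.45, 10.38 and 10.25 against 10.77, 10.56 and 10.48 at 72 h (0.24 ± 0.11, adjusted p = 0.102). TGFBR1 differed by 0.029 ± 0.097 and -0.17 ± 0.097, not called.

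CCN2, or connective tissue growth factor, is a matricellular protein and a classical TGF-beta target. Its promoter window is shown because its differences from control had opposite signs at the 2 times, though neither was called in the main fit. Opposite signs were not particular to CCN2, and THBS1 and TGFB1 are further examples. Capitals mark CAGAC, at position -177 from the start, and TATAAA, at -32 (RefSeq, GRCh38.p14).
CCN2, chr6:131951323-131951622, minus strand: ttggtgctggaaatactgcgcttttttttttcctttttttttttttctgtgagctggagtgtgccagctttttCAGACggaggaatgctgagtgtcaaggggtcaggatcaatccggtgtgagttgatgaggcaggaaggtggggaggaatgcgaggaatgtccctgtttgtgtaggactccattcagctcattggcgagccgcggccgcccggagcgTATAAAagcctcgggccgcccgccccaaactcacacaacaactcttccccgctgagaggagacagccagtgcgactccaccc
CCN2 read 9.27, 7.89 and 9.18 in control and 7.76, 6.20 and 7.95 with Ota at 24 h. At 72 h it read 9.14, 8.02 and 9.64 against 9.49, 8.88 and 9.50. Replicate 2 was the lowest array of every group, so the groups overlapped at 24 h although the same-number differences were -1.51, -1.69 and -1.23. The difference of -1.48 ± 0.53 at 24 h missed the threshold (limma adjusted p = 0.0542). With the replicate number as a block it was called (adjusted p = 0.000472), and the numbers paired the 24 h arrays by the criterion used. It was also called with the filter at 6 (adjusted p = 0.045) and under limma's trend and robust setting (adjusted p = 0.0393). At 72 h the difference was 0.36 ± 0.53 (adjusted p = 0.645).

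THBS1, thrombospondin 1, which can release active TGF-beta from its latent complex, shared that pattern of replicates. It read 8.99, 7.23 and 7.81 in control and 8.24, 5.99 and 7.15 with Ota at 24 h, and 6.90, 5.35 and 6.34 against 7.59, 7.23 and 7.94 at 72 h. Its differences were -0.89 ± 0.58 (limma adjusted p = 0.279) and 1.39 ± 0.58 (adjusted p = 0.0908). With the replicate block the 24 h difference was called (adjusted p = 0.0449). COL1A1 was likewise lower at 24 h with the block (-0.51, adjusted p = 0.00604, against 0.0935 without it), so that 5 members were lower rather than 2. Its arrays read 8.48, 8.01 and 8.86 against 8.03, 7.70 and 8.10.

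**Figure D4:**
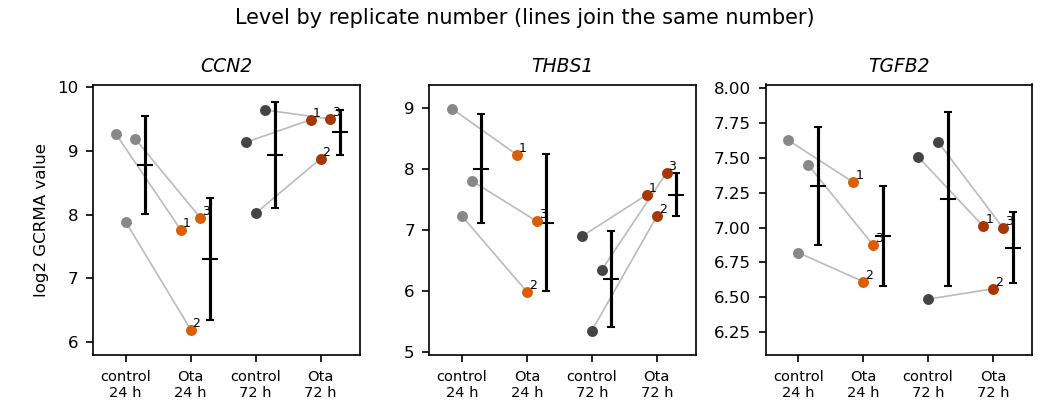
Log2 value of CCN2, THBS1 and TGFB2 on each array, with lines joining control and Ota arrays of the same replicate number at each time and black bars for the group mean and SD. Replicate 2 is the lowest in every group, and the CCN2 lines at 24 h fall by 1.51, 1.69 and 1.23.

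The mesenchymal transcription factors gave no common direction. SNAI1 was at the floor, and SNAI2 read between 2.42 and 2.50 on every array. TWIST1 read 6.77, 6.85 and 7.05 in control and 6.56, 6.53 and 6.65 with Ota at 24 h, and 6.67, 6.76 and 6.60 against 6.74, 6.73 and 6.62 at 72 h. It fell by 0.31 ± 0.092 at 24 h (adjusted p = 0.0251) and differed by 0.018 ± 0.092 at 72 h. The 24 h call was lost without Ota replicate 1 (-0.30, adjusted p = 0.0701) or 2 (-0.28, adjusted p = 0.0798), control replicate 3 (-0.23, adjusted p = 0.0788), or under limma's trend and robust setting (adjusted p = 0.0611). ZEB1, a repressor of CDH1, read 6.74, 6.41 and 6.82 against 7.00, 7.01 and 6.58 at 24 h, and 7.23, 7.34 and 6.81 against 6.75, 7.23 and 6.59 at 72 h, overlapping at both times (0.20 ± 0.20 and -0.27 ± 0.20). ZEB2, not tested, read 2.93, 2.96 and 2.57 in control and 4.41, 4.64 and 3.03 with Ota at 24 h, and 2.74, 2.31 and 2.74 against 3.23, 3.66 and 3.48 at 72 h. Its Ota arrays lay above the control arrays at both times, close to the floor. Among epithelial markers, CDH1, the adhesion protein that mesenchymal factors repress, was below control by 1.11 ± 0.23 at 72 h (adjusted p = 0.0039). KRT18 was below it by 0.87 ± 0.11 and KRT7 by 0.68 ± 0.15. In control cells CDH1, KRT18 and KRT7 were called higher at 72 h than at 24 h, by 1.11 ± 0.23, 0.33 ± 0.11 and 0.49 ± 0.15. In Ota cells they changed over time by 0.51 ± 0.23, -0.16 ± 0.11 and -0.13 ± 0.15, not called. At 24 h KRT18 and KRT19 were lower than control, and none of the 6 markers was called higher than control at either time. KRT19 was above control at 72 h by 0.32 ± 0.13 (adjusted p = 0.0777), and its difference of responses was called (0.74 ± 0.18, adjusted p = 0.0159). EPCAM differed by 0.29 ± 0.14 and 0.045 ± 0.14, and KRT8 by -0.19 ± 0.28 and -0.25 ± 0.28.

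Control cells changed these genes over time. Of the 41, 21 were lower and 3 higher in control cells at 72 h than at 24 h, against 46.4% of all genes called, 23.6% lower and 22.7% higher. Their median change was -0.50, beside -0.00080 over all genes. PLAT and MMP1 are among those lower in control and in Ota cells, but passed the filter through their 24 h arrays, with 0 and 1 arrays above 4 at 72 h. Without them 19 of 39 were lower in control cells and 9 of 39 in Ota cells. Falls in control cells included MMP7 (-2.40 ± 0.12), SERPINE2 (-1.90 ± 0.21), TGFBI (-1.84 ± 0.17), LUM (-1.81 ± 0.24) and DCN (-1.74 ± 0.29). THBS1 fell by 1.81 ± 0.58 (adjusted p = 0.0234), a call lost without control replicate 1 at 24 h (-1.32, adjusted p = 0.0998), control replicate 2 at 72 h (-1.39, adjusted p = 0.0961) or the filter (adjusted p = 0.0841), by limma, and it changed by -0.78 as the mean of its probe sets. Averaged over their probe sets, SERPINE2, LUM and DCN changed by -1.12, -0.91 and -1.01, all still called. LOX rose by 2.53 ± 0.32 (5.79-fold, adjusted p = 6.79e-05), LAMB1 by 0.58 ± 0.12 (adjusted p = 0.00171) and COL4A5 by 0.68 ± 0.21 (adjusted p = 0.0198, and 0.41, adjusted p = 0.0536, without control replicate 2 at 24 h). In Ota cells 11 of the 41 were lower and 2 higher at 72 h than at 24 h, against 32.2% of all genes called, 9.99% lower and 22.2% higher. Their median change was -0.12, beside 0.081 over all genes. The 2 higher were COL4A5 and CCN2, and LOX changed by 0.85 ± 0.32 (limma adjusted p = 0.0594). Of the 21 members lower over time in control cells, 11 were called higher than control with Ota at 72 h. Of the 17 not called over time in control cells, 0 were, and of the 3 higher, 0 were. These 11 are all the members called higher at 72 h, and none was called higher over time in Ota cells. The matching shares over all genes were not counted, and both calls use the control arrays at 72 h, so low values there favour both. LAMC1 is among the 11, but its change in control cells (-0.26 ± 0.099, limma adjusted p = 0.0466) lost its call under 13 of 21 alternative runs. Arrays of both times did not overlap for 28 of the 41 in control cells (6 higher and 22 lower at 72 h), against 54.8% of all genes (27.1% and 27.7%). In Ota cells this held for 18 (3 higher and 15 lower), against 50.8% of all genes (31.4% and 19.4%).

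TGFBI, a secreted protein named for its induction by TGF-beta, fell over time in both kinds of cell. It read 9.31, 9.55 and 9.09 in control cells at 24 h and 7.38, 7.44 and 7.61 at 72 h, and in Ota cells 9.29, 9.59 and 8.96 and then 8.06, 7.99 and 7.66. The falls were -1.84 ± 0.17 in control and -1.37 ± 0.17 in Ota cells, and its difference from control was -0.039 ± 0.17 at 24 h and 0.43 ± 0.17 at 72 h (limma adjusted p = 0.0782). COL6A1 and COL7A1 also fell in both. PLAT read between 4.73 and 5.54 at 24 h and between 3.14 and 3.94 at 72 h. CCN2 rose over time in Ota cells, by 1.99 ± 0.53 (adjusted p = 0.0147), a call lost without Ota replicate 2 at 24 h (1.44, adjusted p = 0.057) and without the filter (adjusted p = 0.0573), and its change in control cells was 0.15 ± 0.53. The comparison of Ota with control at 72 h and that of control cells over time share the control arrays at 72 h, so values from them are not independent.

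**Figure D5:**
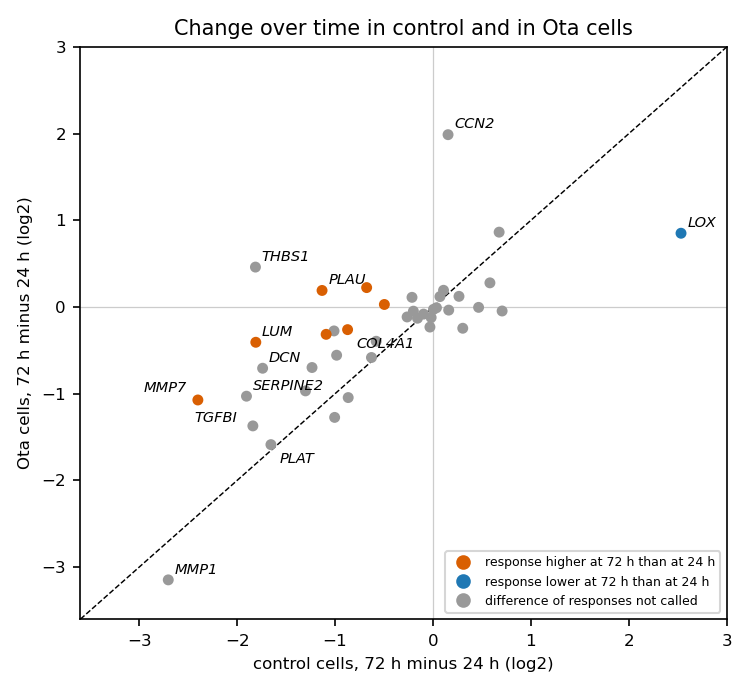
Log2 change from 24 h to 72 h of the 41 tested genes in control cells (x axis) and in Ota cells (y axis); the dashed line marks equal change and colour marks genes whose Ota response differed between the times. MMP7 changed by -2.40 in control and -1.07 in Ota cells, and LOX by 2.53 and 0.85.

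The Ota response itself differed between the times for 8 of the 41 genes, 7 with the higher response at 72 h and 1, LOX, with the lower, against 21.3% of all genes called (15.5% higher and 5.79% lower). The difference was -1.68 ± 0.45 for LOX (limma adjusted p = 0.0213), 1.40 ± 0.34 for LUM (adjusted p = 0.0144), 1.33 ± 0.18 for MMP7 (adjusted p = 0.000686) and 1.32 ± 0.36 for PLAU (adjusted p = 0.0235). SMAD7, PLAUR, COL4A1 and TGFB1 had differences from 0.53 to 0.90. MMP7 and LUM kept the call under every alternative run. The LOX call was lost without control replicate 3 at 72 h (-1.54, adjusted p = 0.0512) and without the filter (adjusted p = 0.073), by limma. The PLAU call was lost without control replicate 1 at 24 h (1.22, adjusted p = 0.056), control replicate 1 at 72 h (1.25, adjusted p = 0.0553), Ota replicate 2 at 24 h (1.26, adjusted p = 0.0521), Ota replicate 3 at 72 h (1.13, adjusted p = 0.0536) or the filter (adjusted p = 0.0763). The calls of SMAD7, PLAUR, COL4A1 and TGFB1 were each lost on leaving out any of 8 or 9 of the 12 arrays, with limma adjusted p up to 0.0674, 0.0803, 0.109 and 0.101. For CCN2 and THBS1 the differences of responses were 1.83 ± 0.75 (adjusted p = 0.104) and 2.27 ± 0.82 (adjusted p = 0.0695), not called.

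Probe sets of 1 gene did not always move together. Of the 41 genes, 23 had more than 1 probe set above the filter, and 10 of these had differences of both signs at 72 h. SPARC, a collagen-binding protein of the matrix, is not among these 10, but its probe sets differed in the size of the change. It was singled out after its values were seen. Its brightest probe set differed by -0.069 ± 0.11 at 24 h and 0.016 ± 0.11 at 72 h. Its other probe set above the filter read 10.48, 10.62 and 10.32 in control and 12.28, 12.32 and 12.08 with Ota at 24 h, and 11.36, 11.36 and 11.28 against 12.28, 12.52 and 12.32 at 72 h. It was higher by 1.76 ± 0.11 (adjusted p = 1.06e-06 over all probe sets) and 1.04 ± 0.11 (adjusted p = 6.93e-05), with no overlap at either time. TIMP2, a metalloproteinase inhibitor, differed by 0.12 ± 0.13 at 24 h by its brightest probe set and by -1.01 ± 0.19 by its dimmest one above the filter (adjusted p = 0.00165). THBS1 was lower at 24 h by its dimmest probe set above the filter, by 1.21 ± 0.27 (adjusted p = 0.00601). Which transcripts these probe sets read was not tested.

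Other genes of the same processes were counted from lists of pathway genes. Of 22 further TGF-beta pathway genes tested, 4 were higher and 3 lower at 24 h, and 4 higher and 1 lower at 72 h, with median differences of 0.013 and 0.16. For these lists the shares over all genes are 31.0% called at 24 h and 32.0% at 72 h, and no list is read as standing apart from them. The inhibitors SMAD6 and SKIL were higher at both times, and ID2 and ID3, targets of the related BMP signal, rose by 1.32 ± 0.12 (adjusted p = 2.6e-05) and 1.15 ± 0.22 (adjusted p = 0.00219) at 72 h. At 24 h ID1 fell by 0.91 ± 0.19, and the signal carriers SMAD4 and SMAD2 fell by 0.46 ± 0.11 (adjusted p = 0.00733) and 0.31 ± 0.086 (adjusted p = 0.0183). BAMBI, a decoy receptor, fell by 0.83 ± 0.13 at 72 h. Of 14 collagen-modifying enzymes, none was called at 24 h, and at 72 h 2 were higher and 5 lower (median -0.13). PCOLCE2, an enhancer of procollagen trimming, rose by 1.48 ± 0.21 (adjusted p = 0.000358), and the prolyl hydroxylase subunits P4HA2 and P4HB fell by 0.86 ± 0.092 and 0.62 ± 0.12. The rises at 72 h among 15 further matrix genes were 4, with 1 fall (median 0.12), led by TNC, tenascin C, at 1.37 ± 0.23 (adjusted p = 0.00107), and none was called at 24 h. Of 14 matrix receptors, 2 were higher and 1 lower at 24 h and 4 higher at 72 h (median 0.23), led by CD44, the hyaluronan receptor, at 1.19 ± 0.19 (adjusted p = 0.000928). Of 9 further proteases and inhibitors, 1 was higher at 24 h, and 2 were higher and 1 lower at 72 h. ADAMTS1, a secreted protease that cuts proteoglycans, rose by 1.61 ± 0.12 at 72 h (adjusted p = 6.57e-06).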

How the data were processed

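The deposited values are log2 expression values that the authors computed with GCRMA, as the submitters' processing notes name it. Its version is not given in the sources used here. GCRMA subtracts modelled background, which leaves undetected probe sets on a floor, and normalizes by quantiles, so a shift of all RNA is hard to see. Arrays have no read depth, and 3 arrays per group limit the precision; the upper quartile ranged from 6.89 to 7.11.

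Probe sets were named from the platform annotation, updated through the RefSeq gene list (GRCh38.p14, for names only), and 41091 of 54675 had 1 symbol, 1801 several and 11721 none, besides 62 controls left out. Each gene was read from the probe set with the highest mean. All 10699 genes above the filter (log2 above 4 on at least 3 arrays) were fitted in limma 3.58.1 (R 4.3.3), with 1 mean per group over 12 arrays, lmFit, eBayes (8 residual and 3.31 prior degrees of freedom) and Benjamini-Hochberg adjustment, called below 0.05. Adjusted p-values for further probe sets come from the same fit over 19460 probe sets. Errors are the fit's standard errors (SE); folds are 2 to the power of the log2 difference. The code was tested on simulated data.

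The members and lists were chosen with earlier results of these data known. By rule, per-array values were given for called members with an absolute difference of at least 1 and for the 8 smallest p in each Ota comparison. The rule also took the 5 largest differences of responses and 12 members whatever their values. Outside this rule, per-array values were given for COL1A1, MMP1, SPARC and ZEB2. Other members are named with their level or difference only. Same-numbered deviations from the group means correlated at 0.32 to 0.45 between control and Ota at 24 h, over the criterion of 0.1 in every pair, and at 0.067 to 0.27 at 72 h, so for the numbers, which come from the sample titles, the criterion was met at 24 h and not at 72 h. It was also met between Ota at 24 h and control at 72 h (0.23 to 0.26), groups that are not compared. Tables were handled with data.table (version 1.17.8) and pandas 2.3.3 under Python 3.11.15, and plots with matplotlib 3.10.9.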

Additional observations from a re-analysis of the deposited data

Results flagged for a closer look

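For 8 of the 41 genes, against 21.3% of all genes tested, the Ota response at 72 h differed from that at 24 h by a test of the difference itself, the interaction in the limma fit. The difference of responses was -1.68 ± 0.45 (SE) for LOX (adjusted p = 0.0213), 1.40 ± 0.34 for LUM (adjusted p = 0.0144) and 1.33 ± 0.18 for MMP7 (adjusted p = 0.000686). It was 1.32 ± 0.36 for PLAU (adjusted p = 0.0235), 0.90 ± 0.26 for SMAD7 (adjusted p = 0.0287) and 0.78 ± 0.23 for PLAUR (adjusted p = 0.0356). The smallest were 0.61 ± 0.20 for COL4A1 (adjusted p = 0.0492) and 0.53 ± 0.17 for TGFB1 (adjusted p = 0.0439). Control cells at 72 h were lower than at 24 h in 7 of the 8 genes and higher for LOX, and these control arrays enter the difference.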

How the results depend on the processing

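Of 90 results for single members, 61 kept their call, or lack of one, under every alternative run (at most 22). The other 29 changed call under at least 1, and no called difference reversed its sign. Some differences that were not called did change sign, such as that of COL4A1 at 24 h (-0.13 to 0.090). With every probe set on its own, 24 h calls were 5 higher and 6 lower of 76 (31.4% of all probe sets called), 72 h calls 18 and 6 (29.2%), and 4 differences of responses were lower (17.8% called); over time 7 were higher and 34 lower in control cells (41.2%), and 18 lower in Ota cells (27.7%). Averaging all probe sets of a gene gave 4 of 36 members tested lower at 24 h (30.9% of all genes called). Limma's trend and robust setting gave 4 higher over time in Ota cells, with the share over all genes not counted. Without the filter, where 55 members were tested, 2 differences of responses were higher and 0 lower (8.84% of all genes called). There, 1 gene was higher over time in Ota cells (14.5%). Repeated quantile normalization gave 4 differences of responses higher and 2 lower (20.9%), and a shift to a common median 4 higher (20.7%); that shift moved the median over all genes from 0.089 to -0.026, and for Ota cells over time from 0.081 to -0.040. The replicate block gave 5 lower at 24 h (35.7% of all genes called), 13 differences of responses higher and 2 lower (26.5%), and 5 higher over time in control cells (50.6%); at 72 h, where the groups compared did not meet the pairing criterion, it added THBS1 (1.39, adjusted p = 0.00627), TGFBI (0.43, adjusted p = 0.0419) and TGFBR2 (0.24, adjusted p = 0.0372). A block within each time, chosen after seeing the data, gave 6 higher and 5 lower at 24 h (36.8%) and 12 higher and 2 lower differences (28.2%); changes over time could not be fitted with it. Leaving out 1 array gave 2 to 4 higher and 0 to 3 lower at 24 h, 8 to 11 and 3 to 3 at 72 h, 3 to 8 and 0 to 1 for the difference, 2 to 4 and 19 to 22 over time in control cells, and 1 to 3 and 9 to 12 in Ota cells. For these runs the shares over all genes were not counted, so the ranges are not set against them. Signal near the floor limits what can be said of the 14 untested genes and of BGN, PLAT, COL12A1 and MMP1.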
